A study of Mus musculus with 30 samples.

Results

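The 10 genes described here build, coat and empty the lipid droplets of the liver cell: *Plin2*, *Plin4*, *Plin5*, *Cidec*, *Cideb*, *G0s2*, *Pnpla2*, *Cd36*, *Dgat1* and *Dgat2*. They were chosen by name, all 10 were among the 14173 genes of the deposited tables, and all 10 passed the filter on low counts in every comparison, several of which share livers. RNA was measured in whole liver of male C57BL6/J mice, aged 6 months, after 12 weeks on the diet and a 4 h fast. Each of 5 diets had 10 mice, of which 6 gave a library. Cas-20% held 20% casein with 0.57 g% methionine and 0.41 g% cysteine, and Cas-5% held 5% casein with 0.15 and 0.1 g%. Soy-20% held 20% soy protein with 0.22 g% of each, Soy-20% + SAA held 20% soy with methionine and cysteine raised to 0.58 and 0.41 g%, and Soy-10% held 11.5% soy by the labels with 0.13 g% of each. The casein mice had started on Cas-20% and the soy mice on Soy-20% for 2 weeks before the switch at 12 weeks of age. The mice were of a single inbred strain and sex, and each library came from a piece of flash-frozen liver, so that cell types were not separated.

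Triglyceride is made in the endoplasmic reticulum, stored in droplets under a coat of perilipins, and released by lipases or packed into lipoproteins for export. In the hepatocyte PLIN2 is the main droplet coat protein, PLIN5 links droplets to mitochondria, and PLIN4 is a long perilipin best known from adipocytes. CIDEC makes droplets fuse and grow and is low in lean liver, while CIDEB helps to load triglyceride onto very low density lipoprotein. PNPLA2 (ATGL) starts the breakdown of triglyceride and G0S2 inhibits it. CD36 takes up fatty acids at the cell surface, and DGAT1 and DGAT2 attach the last fatty acid to make triglyceride. *Cidec*, *Cd36*, *Plin2*, *Plin4*, *Plin5* and *G0s2* are textbook targets of the nuclear receptors PPARα or PPARγ.

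On GRCm38, *Plin2* (ENSMUSG00000028494) lies at chr4:86648386-86670060 and *Cd36* (ENSMUSG00000002944) at chr5:17781690-17888801. *Plin4* (ENSMUSG00000002831) at chr17:56100591-56109803 and *Plin5* (ENSMUSG00000011305) at chr17:56111601-56117596 are neighbours on 1 strand. *Cidec* (ENSMUSG00000030278) is at chr6:113424634-113435760 and *Cideb* (ENSMUSG00000022219) at chr14:55754050-55758458. *G0s2* (ENSMUSG00000009633) is at chr1:193272161-193273217 and *Pnpla2* (ENSMUSG00000025509) at chr7:141455198-141460743. *Dgat1* (ENSMUSG00000022555) is at chr15:76502015-76511953 and *Dgat2* (ENSMUSG00000030747) at chr7:99153658-99182719. All are on the minus strand except *Pnpla2*. *Plin4*, *Cideb* and *G0s2* overlap a gene on the other strand (*Hdgfl2*, *Nop9* and *Lamb3*), and whether the counting used strand is not given in the sources used here, so reads of such pairs may have been mixed. The mean count of these partners was 193.4, 183.7 and 24.1 per liver.

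The 5 genes whose RNA differed between the restricted diets are shown by the 250 bases before a start site. Start sites are credited to RefSeq on GRCm38.p6, and bases run 5′ to 3′ along the gene. RefSeq gives *Cidec* a further start site, which is not shown. The start of *Cd36* shown lies within the span of the gene given earlier. Which starts these livers use was not tested. Capitals mark AGGTCA, the 6-base core bound by PPAR and its relatives, or TGACG, the core of the cAMP response element, on either strand.
Cidec, chr6:113435761-113436010, minus strand: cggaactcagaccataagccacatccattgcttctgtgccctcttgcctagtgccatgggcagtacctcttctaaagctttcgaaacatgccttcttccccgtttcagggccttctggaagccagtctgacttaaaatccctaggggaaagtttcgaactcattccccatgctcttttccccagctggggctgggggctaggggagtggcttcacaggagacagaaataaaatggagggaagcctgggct
Plin4, chr17:56109783-56110032, minus strand: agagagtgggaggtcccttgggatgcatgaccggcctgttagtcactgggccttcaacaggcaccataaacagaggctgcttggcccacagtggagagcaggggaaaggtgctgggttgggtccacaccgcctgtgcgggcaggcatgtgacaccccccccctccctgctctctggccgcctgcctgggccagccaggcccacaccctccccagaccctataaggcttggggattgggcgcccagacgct
Cideb, chr14:55758425-55758674, minus strand: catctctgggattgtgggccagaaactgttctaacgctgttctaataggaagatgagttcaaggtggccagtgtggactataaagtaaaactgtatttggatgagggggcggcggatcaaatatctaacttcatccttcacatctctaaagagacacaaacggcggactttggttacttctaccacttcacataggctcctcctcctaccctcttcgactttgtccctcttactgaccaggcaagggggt
G0s2, chr1:193273189-193273438, minus strand: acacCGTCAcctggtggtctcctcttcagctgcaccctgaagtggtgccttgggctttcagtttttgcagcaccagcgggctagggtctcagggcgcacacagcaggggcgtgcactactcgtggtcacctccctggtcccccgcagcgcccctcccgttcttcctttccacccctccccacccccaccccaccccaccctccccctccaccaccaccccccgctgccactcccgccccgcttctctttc
Cd36, chr5:17835897-17836146, minus strand: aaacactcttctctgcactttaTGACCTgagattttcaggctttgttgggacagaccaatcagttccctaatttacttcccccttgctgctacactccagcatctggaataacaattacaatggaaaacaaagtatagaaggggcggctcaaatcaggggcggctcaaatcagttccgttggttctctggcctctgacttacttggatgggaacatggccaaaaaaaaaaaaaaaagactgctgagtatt

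Each start site was searched over 250 bases before and 50 after it, on both strands, in the 10 windows that the RefSeq table gives for 8 of the 10 genes. Of the windows shown, that of *Cd36* held AGGTCA at -228 and that of *G0s2* held TGACG at -246, counted in bases from the start site. AGGTCA occurred in 4 of the 10 windows, of *Plin2*, *Cd36* and both starts of *Plin5*, against 16.3% of 32851 mouse promoters. The full PPAR element, AGGTCA repeated in the same direction with 1 base between the copies, was in 0 of the 10 and in 0.0396% of all. A looser form, in which the fourth base of each copy was free, was in 0 of the 10 and 0.381%. The E-box CACGTG was in *Plin2* alone, against 7.15% of all, TGACG was in *G0s2* alone, against 20.8%, and the FOXO motif TGTTTAC was in none, against 3.65%. PPAR elements may lie outside windows of this length.

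The libraries held 7694015 to 14565542 counts. Values below are normalized counts, which the authors made by dividing counts by a size factor of each library (0.759 to 1.297), and they scale with the number of reads from the 3′ end of a transcript and not with its length. Libraries of Soy-20% + SAA livers 3, 4, 5 and 6 stood apart: the slope of their counts on the GC content of the last 200 bases of transcripts was 0.0582 to 0.207 on the log2 scale per 10% GC, against -0.065 to 0.035 in the 24 livers of the other diets and -0.0331 and -0.0227 in Soy-20% + SAA livers 2 and 1. Every liver held the hepatocyte marker *Alb* at 430400 or more. Soy-10% liver 4 held pancreatic acinar RNA, with 1317 *Prss2* and 1036 *Cpa1* where no other liver passed 1.11. *Plin4* and *Cidec* had the fewest reads, down to 4 and 10 counts in a liver, so that counting error weighs most there.

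A gene is said to differ, rise or fall where its adjusted p was 0.05 or less in the two-sided quasi-likelihood test of edgeR, adjusted over all genes tested by the method of Benjamini and Hochberg. Over the 5 diets, 6 of the 10 genes differed, with 43.4% of all genes tested doing so. They were *Cidec* (adjusted p = 5.9e-05), *Plin5* (4.5e-05), *Cideb* (0.0016), *G0s2* (0.016), *Plin2* (0.019) and *Plin4* (0.024). *Cd36* and *Dgat2* (adjusted p = 0.087 for each), *Pnpla2* (0.15) and *Dgat1* (0.58) did not pass. *Plin2* lost its call without Soy-20% + SAA liver 5 or 6 and *Plin4* without Soy-10% liver 6, with adjusted p of up to 0.055 and 0.051. Without Soy-20% + SAA livers 3 to 6 *Plin2* (adjusted p = 0.15) and *G0s2* (0.063) were not called, nor was *Plin2* with the GC slope of the libraries as a covariate (0.13). *Plin4* was not called by DESeq2 (0.052), and a filter of 10 counts in every liver left it untested.

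**Figure D1:**
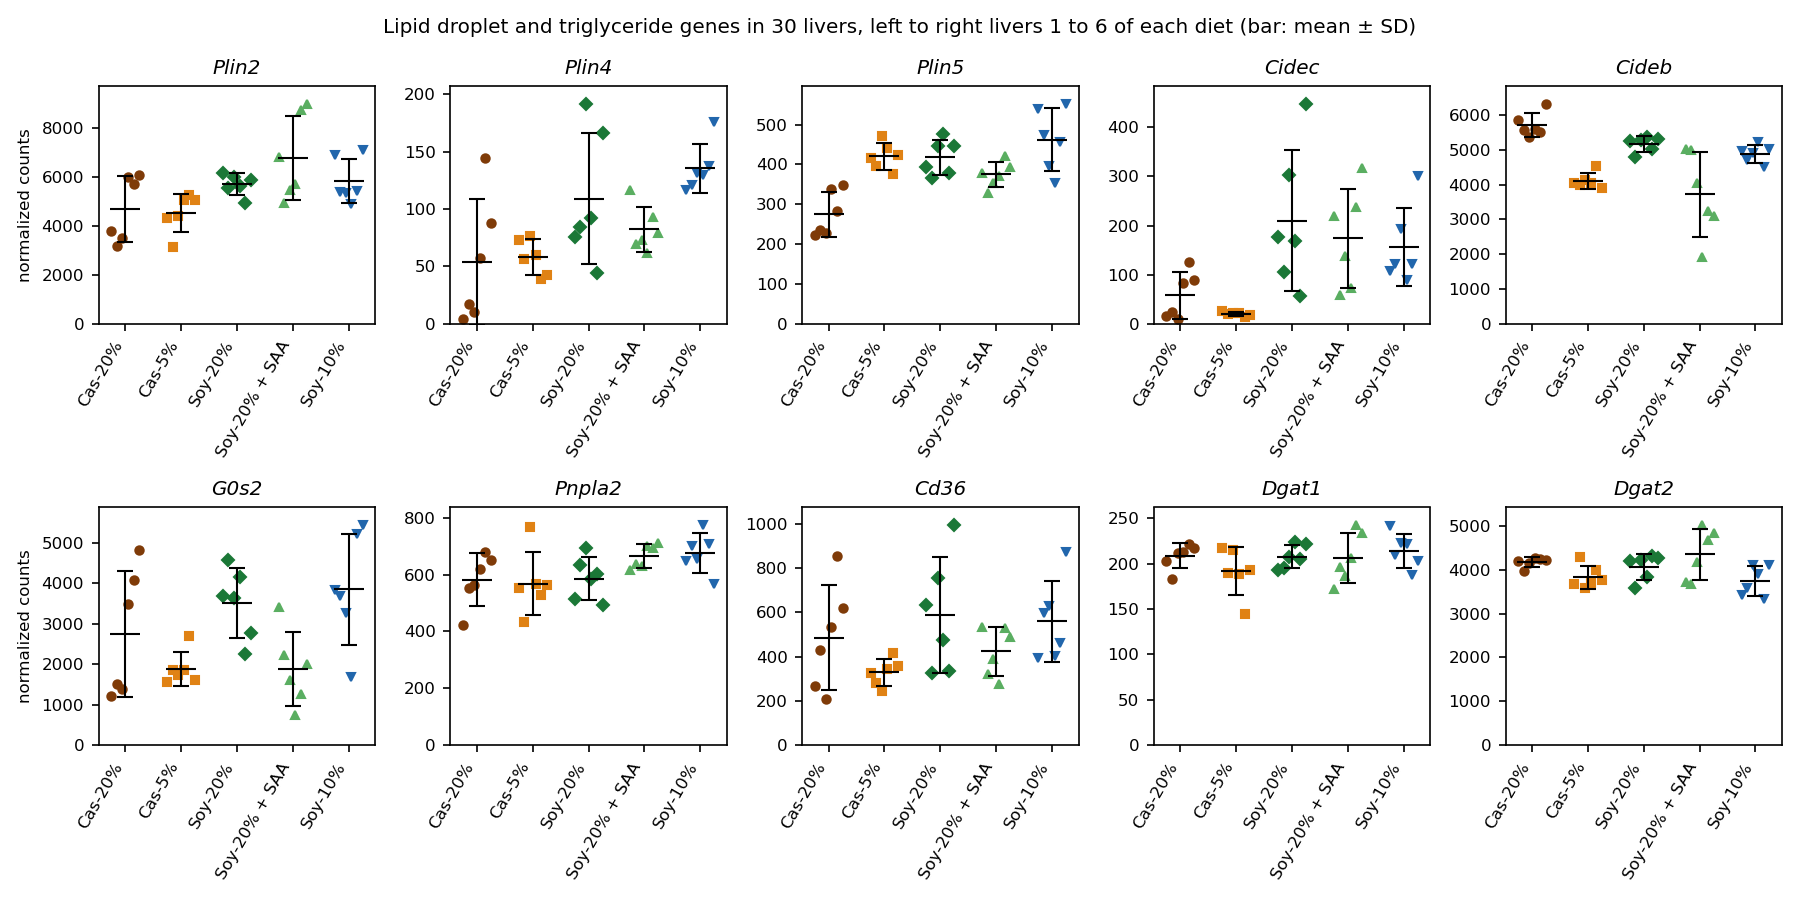
Normalized counts (vertical axes from 0) of the 10 genes in each of 30 livers, by diet, with livers 1 to 6 from left to right and a bar for mean ± SD (n = 6; lower ends below 0 are not drawn). The 6 Cas-5% livers sit between 14.4 and 25.7 for *Cidec*, below every Soy-10% liver.

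Of the comparisons of 2 diets, the count of differing genes among the 10 was highest between the restricted diets, which were both low in sulfur amino acids and differed in protein source and in protein content (5% and 11.5%). Compared to Soy-10%, Cas-5% livers held less *Cidec*, *Plin4*, *G0s2*, *Cd36* and *Cideb* RNA, and none of the 10 genes was higher. That is 5 of 10 genes lower, where 6.14% of all genes tested were lower and 4.59% higher, and 10.7% in all. The 10 genes were chosen with earlier results of these data known. The median log2 fold change of the 10 genes was -0.29, against 0.01 over all genes tested.

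*Cidec* was 14.4, 20.6 and 25.7 normalized counts at the lowest, median and highest Cas-5% liver, and 89.7, 122 and 301 on Soy-10%. The lowest Soy-10% liver thus stood above the highest Cas-5% liver. The difference was 7.62-fold (log2 fold change -2.93 ± 0.29 SE, n = 6 and 6, adjusted p = 9.3e-06). *Plin4* ran from 38.5 through a median of 58.1 to 76.6 on Cas-5% and from 117 through 131 to 176 on Soy-10%. These groups did not overlap either, and *Plin4* was 2.33-fold lower on Cas-5% (log2 fold change -1.22 ± 0.15 SE, adjusted p = 7.9e-05). Groups that did not overlap, with Cas-5% lower, were seen for 4.09% of all genes tested.

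*G0s2*, the inhibitor of the lipase PNPLA2, was 1561, 1792 and 2697 at the lowest, median and highest Cas-5% liver and 1681, 3751 and 5430 on Soy-10%. The diets overlapped through Soy-10% liver 4, at 1681, which is the library with pancreatic RNA. *G0s2* was 2.01-fold lower on Cas-5% (log2 fold change -1.01 ± 0.20 SE, adjusted p = 0.0038), and -1.16 (adjusted p = 0.00014) without that liver. *Cd36* was 246, 335 and 419 on Cas-5% and 392, 529 and 875 on Soy-10%. Of the Cas-5% livers 5 were below every Soy-10% liver, and the fold was 1.68 (log2 fold change -0.75 ± 0.17 SE, adjusted p = 0.0085). *Cideb* was 3886, 4042 and 4538 on Cas-5% and 4502, 4929 and 5228 on Soy-10%. Its difference was the smallest of the 5, at 1.18-fold (log2 fold change -0.23 ± 0.06 SE, adjusted p = 0.014).

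All 5 genes kept their calls when each of the 12 livers was left out in turn, without Soy-10% liver 4 included. Without liver 4, *Plin2* also passed (log2 fold change -0.39, adjusted p = 0.042), as it did without Cas-5% liver 5 (-0.39, 0.046), and *Pnpla2* passed without Cas-5% liver 3 (-0.33, 0.022). In a fit over all 30 livers, where 7.17% of all genes were called, *Cidec* (adjusted p = 0.00095) and *G0s2* (0.047) were called and *Plin4* (0.059), *Cd36* (0.1) and *Cideb* (0.28) were not.

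**Figure D2:**
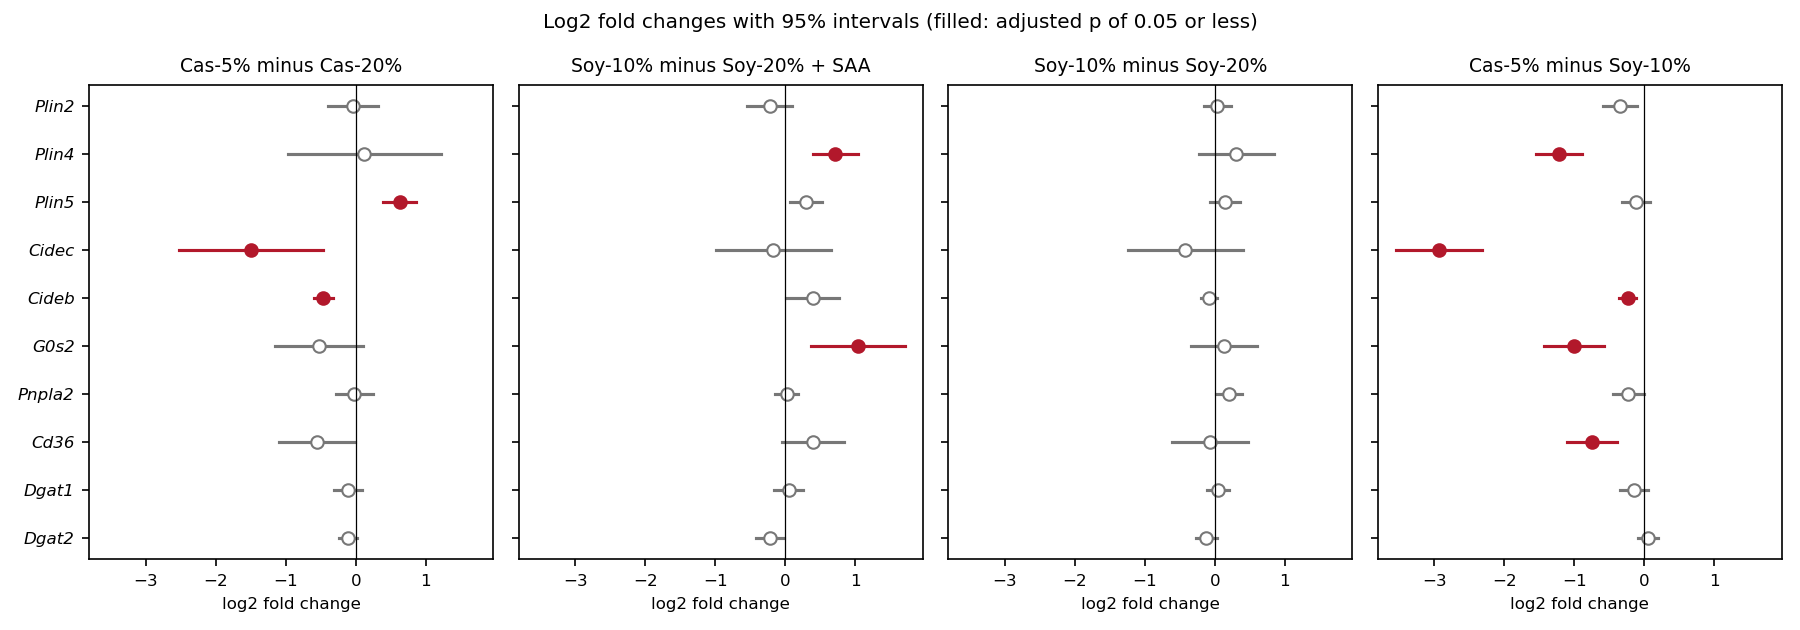
Log2 fold change (horizontal axes) of each gene with its 95% interval in 4 comparisons of 6 livers with 6, filled red where the adjusted p was 0.05 or less. In Cas-5% minus Soy-10% 5 genes are filled and all lie left of 0, while in Soy-10% minus Soy-20% none is filled.

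Casein restriction, the comparison of Cas-5% with Cas-20%, moved 3 of the 10 genes. *Plin5* rose, and *Cideb* and *Cidec* fell. Over all genes tested 24.9% differed, 11.6% higher and 13.3% lower, so that the share of the 10 genes was near the background.

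*Plin5*, the perilipin at the contact of droplets and mitochondria, was 222, 258 and 348 at the lowest, median and highest Cas-20% liver and 375, 420 and 473 on Cas-5%. All 6 Cas-5% livers were above every Cas-20% liver, and the rise was 1.54-fold (log2 fold change 0.63 ± 0.11 SE, adjusted p = 0.00055). *Cideb* was 5355, 5585 and 6327 on Cas-20%, above every Cas-5% liver given earlier. It fell 1.38-fold (log2 fold change -0.46 ± 0.06 SE, adjusted p = 4.6e-05). Groups did not overlap for 5.14% of all genes tested in the higher direction and 7.73% in the lower. The calls of *Plin5* and *Cideb* held with each of 12 livers left out.

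*Cidec* differed among the Cas-20% livers themselves. Livers 1, 2 and 3 held 16.0, 23.3 and 10.2 normalized counts and livers 4, 5 and 6 held 83.0, 125.5 and 88.6, so that livers 1 and 2 lay within the range of Cas-5%, liver 3 below it and the others above it. The mean fell 2.82-fold under restriction (log2 fold change -1.498 ± 0.49 SE, adjusted p = 0.033). This call was lost without any 1 of Cas-20% livers 4, 5 and 6 and Cas-5% livers 2, 3, 4, 5 and 6, and over the 12 livers left out the log2 fold change ran from -1.72 to -1.11 and the adjusted p from 0.0068 to 0.092. It was also lost in a fit over all 30 livers (adjusted p = 0.068).

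The same livers of Cas-20% were low and high for other genes of the group. *Plin4* was 4.01, 17.2 and 10.2 in livers 1, 2 and 3 and 57, 144 and 87.5 in livers 4, 5 and 6. *G0s2* was 1217, 1514 and 1377 in the first of these and 3475, 4067 and 4804 in the others. *Plin2* was 3789, 3178 and 3495 against 6003, 5720 and 6077. *Cd36* was 267.3, 429.5 and 208.6 against 535.7, 857.3 and 620.1. *Plin5*, which rose on Cas-5%, was 222.3, 234 and 227 against 337.9, 281.8 and 347.7. For none of *Plin4*, *G0s2* and *Plin2* did the diet means differ under casein restriction. The log2 fold change was 0.12 ± 0.52 SE for *Plin4* (95% interval -0.97 to 1.21), -0.53 ± 0.30 for *G0s2* (-1.15 to 0.10) and -0.04 ± 0.17 for *Plin2* (-0.39 to 0.32). *Cd36* had a log2 fold change of -0.55 ± 0.26 SE with an adjusted p of 0.13, and passed without Cas-20% liver 3 (-0.71, adjusted p = 0.025).

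Soy restriction was read against 2 control diets. Against Soy-20% + SAA, whose sulfur amino acids match Cas-20%, *Plin4* and *G0s2* rose on Soy-10% and no gene fell. That is 2 of 10 genes, against 17% of all genes tested, 8.51% of them higher. Against Soy-20%, 0 of 10 differed, where 0.866% of all genes did. There 1 of the 10 genes, *Pnpla2*, had an unadjusted p under 0.05, as did 1460 of the 11897 genes tested. DESeq2 called 0 of the 10, with 1.82% of all genes.

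*Plin4* was 61.3, 76.0 and 116.6 at the lowest, median and highest Soy-20% + SAA liver, and 44.0, 88.2 and 192 on Soy-20%. The Soy-10% livers, from 116.8 to 176, were all above the Soy-20% + SAA livers, as for 2.9% of all genes tested. The lowest of them stood only just above the highest Soy-20% + SAA liver, and the Soy-10% livers lay within the range of Soy-20%. *Plin4* rose 1.64-fold against Soy-20% + SAA (log2 fold change 0.72 ± 0.15 SE, adjusted p = 0.0072), and its log2 fold change against Soy-20% was 0.31 ± 0.25 (95% interval -0.23 to 0.84, adjusted p = 0.69). *G0s2* was 751, 1802 and 3400 on Soy-20% + SAA and 2250, 3654 and 4574 on Soy-20%. It rose 2.05-fold against the first (log2 fold change 1.03 ± 0.31 SE, adjusted p = 0.037), and had a log2 fold change of 0.13 ± 0.22 against the second (95% interval -0.34 to 0.60, adjusted p = 0.88).

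The calls against Soy-20% + SAA moved with the 4 libraries that stood apart. *G0s2* was 3400 and 2220 in Soy-20% + SAA livers 1 and 2 and 1610, 751, 1271 and 1993 in livers 3, 4, 5 and 6. *Cideb* was 5018 and 4984 in the former and 4043, 1906, 3243 and 3084 in the latter. With the library slope as a covariate 0 of the 10 genes differed, where 2.79% of all genes did, and the log2 fold changes were 0.59 for *Plin4* and 0.42 for *G0s2*. Without livers 3 to 6 the values were 0.52 (adjusted p = 0.21) and 0.44 (0.54), with 2 control livers left. The call of *G0s2* was also lost without any 1 of Soy-20% + SAA livers 3, 4, 5 and 6 or Soy-10% livers 1, 2, 3, 5 and 6, with log2 fold changes from 0.87 to 1.29 and adjusted p from 0.0064 to 0.081. In a fit over all 30 livers, where 24.5% of all genes were called, *Plin4* lost its call (adjusted p = 0.18), *G0s2* kept it (0.017), and *Plin5*, *Cideb* and *Dgat2* were called. The part of library composition in these differences was not tested beyond those fits.

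**Figure D3:**
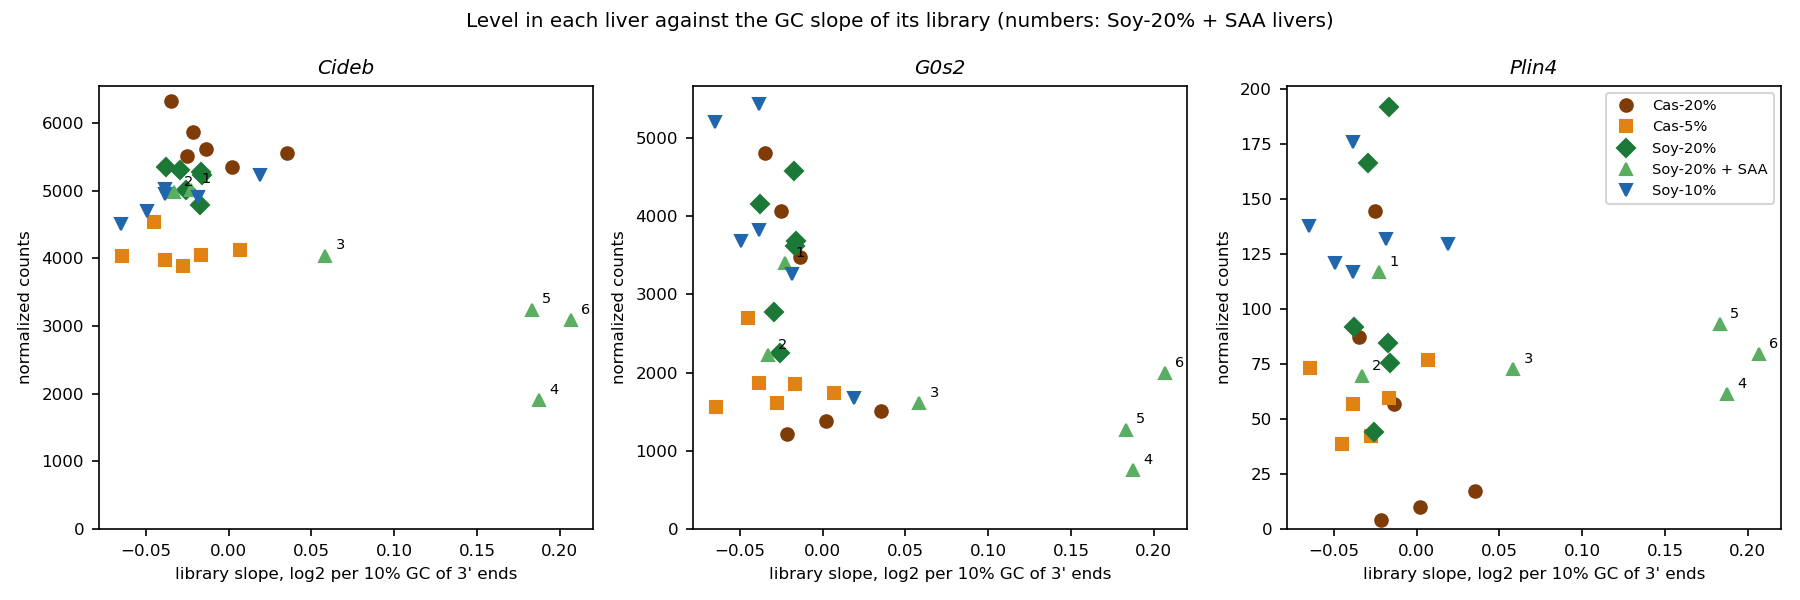
Normalized counts of *Cideb*, *G0s2* and *Plin4* (vertical axes from 0) in 30 livers against the slope of each library on the GC content of transcript 3′ ends (horizontal axes). Soy-20% + SAA livers are numbered, and livers 3 to 6, at slopes of 0.0582 to 0.207, hold 1906 to 4043 *Cideb* where livers 1 and 2 hold 5018 and 4984.

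The last 200 bases of *G0s2* and *Cideb* transcripts were 38.5% and 45.5% GC, and those of *Cd36*, *Plin5* and *Plin4* 35.7%, 42.3% and 49.5%. *Dgat1*, *Pnpla2*, *Dgat2*, *Cidec* and *Plin2* were richer, from 51.3% to 56.5%. Among the 11967 genes used for the slope, *Cd36* (percentile 19.7), *G0s2* (29.8) and *Plin5* (46.7) lay below the median GC content, and *Cideb* (60.6), *Plin4* (76.4) and the others (82.8 to 96) above it. *Cideb* was low in the 4 libraries with a raised slope. The part of library composition in those low values was not tested beyond the fits given earlier.

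Added sulfur amino acids at 20% soy (Soy-20% + SAA minus Soy-20%) changed 0 of the 10 genes, with 0.00838% of all genes called. Of the 11932 genes tested 2892 had an unadjusted p under 0.05. Among the 10 genes 2 did, *G0s2* (log2 fold change -0.91 ± 0.28 SE, adjusted p = 0.089) and *Cideb* (-0.48 ± 0.18 SE, adjusted p = 0.13). DESeq2 called 0 of the 10 and 7.32% of all genes. Without Soy-20% + SAA liver 1, whose slope was not raised, both *G0s2* and *Cideb* passed, at -1.17 and -0.59. Neither passed with the library slope as a covariate or without livers 3 to 6. With the fit over all 30 livers, where 14.3% of all genes were called, only *Cideb* did (adjusted p = 0.013). These are the genes that were low in Soy-20% + SAA livers 3 to 6.

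Between the control diets, Cas-20% minus Soy-20% + SAA, 0 of the 10 genes differed, against 2.43% of all genes. Of the 11988 genes tested 3143 had an unadjusted p under 0.05. Among the 10 genes 4 did: *Plin5* (log2 fold change -0.44 ± 0.12 SE, adjusted p = 0.057), *Cideb* (0.62 ± 0.18 SE, 0.067), *Cidec* (-1.59 ± 0.53 SE, 0.089) and *Plin2* (-0.52 ± 0.20 SE, 0.12). DESeq2 called *Plin5* and *Cideb*, with 9.43% of all genes, and a fit over all 30 livers called all 4, with 18.6%. The 6 Cas-20% livers were above every Soy-20% + SAA liver for *Cideb*, as was the case in 1.5% of all genes tested. Leaving out Soy-20% + SAA liver 1 gave calls for *Plin5* and *Cideb* (adjusted p = 0.037 and 0.02). Leaving out liver 2 gave calls for *Plin5*, *Cideb* and *Cidec* (0.035, 0.032 and 0.046). Livers 1 and 2 are the libraries of that diet without a raised slope. With the slope as a covariate, or without livers 3 to 6, none of the 4 genes was called. The shares of all genes called in those fits are not reported here. Over the alternative fits the adjusted p reached 0.69 for *Plin5*, 0.71 for *Cideb*, 0.72 for *Cidec* and 0.83 for *Plin2*. With Soy-20% in place of Soy-20% + SAA, a comparison added after the libraries had been seen, *Plin5* was lower on casein (log2 fold change -0.60 ± 0.12 SE, adjusted p = 0.014), where 2.69% of all genes differed. *Cidec* was -1.85 ± 0.53 SE there (adjusted p = 0.074) and *Cideb* 0.14 ± 0.06 SE (0.21).

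Whether casein and soy restriction acted alike was tested by subtracting the soy effect from that of casein, over the 24 livers of both casein diets, Soy-10% and Soy-20% + SAA. The difference was called for 2 of the 10 genes, *Cideb* and *G0s2*, both negative, where 8.69% of all genes were called, 5.49% negative and 3.2% positive. For *Cideb* the casein effect was -0.46 and the soy effect 0.39 on the log2 scale, the latter not called by itself (adjusted p = 0.13). The soy effect was -0.04 without Soy-20% + SAA livers 3 to 6, and -0.08 against Soy-20% (adjusted p = 0.6). The difference of the casein and soy effects was -0.86 ± 0.20 SE (adjusted p = 0.0099). It remained called with the library slope as a covariate (-0.56, adjusted p = 0.029, where 4.3% of all genes were called), without Soy-20% + SAA livers 3 to 6 (-0.43, 0.021), with Soy-20% as the soy control (-0.39, 0.0025, where 5.99% of all genes were called) and with each of 24 livers left out. For *G0s2* the casein effect was -0.53 and the soy effect 1.03, and the difference was -1.57 ± 0.47 SE (adjusted p = 0.039). It was called in 7 of the 24 fits with a liver left out, with adjusted p from 0.0086 to 0.075, and was not called with the slope as a covariate (-0.94, 0.28), without livers 3 to 6 (-0.98, 0.38) or with Soy-20% as the control (-0.66, 0.39).

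*Plin5*, *Cidec* and *Cd36* had differences of 0.32 ± 0.16, -1.34 ± 0.69 and -0.95 ± 0.36 SE, with adjusted p of 0.21, 0.22 and 0.092. So the fall of *Cidec* and the rise of *Plin5* on casein were not shown to be particular to casein. *Plin5* had a log2 fold change of 0.30 ± 0.11 SE on Soy-10% against Soy-20% + SAA (adjusted p = 0.065), with 354, 466 and 553 at the lowest, median and highest Soy-10% liver and 329, 375 and 421 on Soy-20% + SAA. Without Soy-10% liver 4 that comparison of *Plin5* passed (0.37, adjusted p = 0.025). The difference of *Cd36* passed without Cas-20% liver 3 (-1.11, adjusted p = 0.036).

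*Dgat1* and *Dgat2*, the enzymes of the last step of synthesis, and the lipase *Pnpla2* were called by edgeR in no comparison when all its livers were used and fitted alone. *Dgat1* was 144 to 242 and *Dgat2* 3341 to 5022 in the 30 livers, and for *Dgat1* every 95% interval of a diet comparison lay between -0.35 and 0.26 on the log2 scale. *Dgat2* had log2 fold changes of -0.11 ± 0.06 SE on casein restriction (95% interval -0.24 to 0.02) and -0.22 ± 0.09 SE on Soy-10% against Soy-20% + SAA (-0.42 to -0.02, adjusted p = 0.1). Against Soy-20% that of *Dgat2* was -0.12 ± 0.07 SE (-0.27 to 0.03). *Pnpla2* was 422 to 774 in the 30 livers, and its log2 fold change was -0.02 ± 0.13 SE on casein restriction (-0.28 to 0.25) and 0.02 ± 0.08 SE on soy restriction against Soy-20% + SAA (-0.15 to 0.19). Cas-5% minus Soy-10% gave -0.23 ± 0.10 SE for *Pnpla2* (-0.45 to -0.01, adjusted p = 0.19). *Plin2*, the main coat protein, had a median of 4754 on Cas-20% and 4726 on Cas-5%, and of 6263 on Soy-20% + SAA, 5776 on Soy-20% and 5409 on Soy-10%. Its log2 fold change between the restricted diets was -0.35 ± 0.12 SE (-0.59 to -0.10, adjusted p = 0.064 by edgeR and 0.039 by DESeq2).

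In the wider pathways, gene lists were counted under the same test, of which all but that of the transcription factors include some of the 10 genes. On casein restriction 5 of 20 droplet coat and formation genes fell and 1 rose, 5 of 17 lipolysis genes fell and 2 rose, and 6 of 19 uptake, binding and activation genes fell and 0 rose. Of the glycerolipid synthesis genes 5 of 19 fell and 1 rose, of the export genes 5 of 12 fell and 0 rose, and of the transcription factors 4 of 16 fell and 2 rose. The background was 13.3% lower and 11.6% higher. Of the 10 genes, *Cideb* and *Cidec* are among the droplet genes that fell and *Plin5* is the 1 that rose. *Cideb* is counted again among the export genes that fell. The medians of these lists ran from -0.29 for uptake to -0.01 for the factors on the log2 scale, against 0.02 over all genes tested.

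Among the genes outside the 10, *Fitm1*, which helps droplets bud from the endoplasmic reticulum, fell on casein restriction by 0.80 ± 0.15 SE on the log2 scale (adjusted p = 0.0008). *Bscl2* (seipin) and *Vps13c* had log2 fold changes of -0.21 and -0.27. Hormone-sensitive lipase, *Lipe*, fell by 0.48 ± 0.09 SE (adjusted p = 0.0011). *Ddhd2*, a lipase, rose by 0.53. *Gpam*, the mitochondrial enzyme of the first step of glycerolipid synthesis, fell as well (log2 fold change -2.01 ± 0.32 SE, adjusted p = 0.00021), and *Agpat2* and *Mogat1* had log2 fold changes of -0.49 and -1.77.

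The uptake list was led by *Slc27a5* (log2 fold change -0.44, adjusted p = 7.7e-05), *Acsl5* (-0.69, 0.00036) and the fatty acid binding protein *Fabp5* (-2.98 ± 0.51 SE, 0.00041). Export genes were led by the apolipoproteins *Apoc3* (-0.64, 1.5e-05) and *Apoa4* (-1.47, 0.00033) and by *Sar1b* (-0.43, 0.0014), which buds the vesicles that carry lipoproteins. *Srebf1*, the factor that drives fatty acid synthesis, fell by 1.93 ± 0.16 SE on the log2 scale (adjusted p = 3.5e-07), and *Cebpa* and *Nr1h3* (LXRα) had -0.56 and -0.28.

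On soy restriction against Soy-20% + SAA, 4 of 21 droplet genes fell and 2 rose, 3 of 17 lipolysis genes fell and 2 rose, and 5 of 18 uptake genes fell and 1 rose. Of the synthesis genes 3 of 19 fell and 1 rose, and of the export genes 3 of 12 fell and 0 rose. Of the factors 3 of 16 fell and 3 rose, with 8.47% of all genes lower and 8.51% higher. *Plin4* is among the droplet genes that rose and *G0s2* among the lipolysis genes that rose. *Gpam* (log2 fold change -1.47 ± 0.27 SE, adjusted p = 0.0038), *Apoa4* (-2.04 ± 0.40 SE, 0.0056), *Lpin1* (-0.84, 0.0062) and *Fabp2* (-0.76, 0.0065) fell. *Gpat3*, which catalyses the same first step as *Gpam*, rose (1.25 ± 0.19 SE, 0.0012), and it also rose on casein restriction (1.48 ± 0.40 SE, 0.011). *Cidea*, a relative of *Cidec*, fell by 2.74 ± 0.69 SE on the log2 scale (adjusted p = 0.017), as did *Pnpla3* (log2 fold change -2.40 ± 0.61 SE, 0.018). Others named by the rule were *Rab8a* (log2 fold change -0.34), *Rab18* (0.47), *Lipe* (-0.46), *Aadac* (0.27), *Fabp5* (-1.55), *Sar1b* (-0.30), *Apoc3* (-0.35), *Cebpb* (0.92), *Ppara* (-0.52) and *Mlxipl* (-0.39). Against Soy-20%, 0 genes of any of these lists were called, where 0.866% of all genes tested were.

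Between the restricted diets 6.14% of all genes tested were lower on Cas-5% and 4.59% higher. Lower there were 5 of 20 droplet genes, 3 of 17 lipolysis genes, 4 of 19 uptake genes and 3 of 19 synthesis genes. In each of these lists 0 genes were higher. Export, where *Cideb* is counted again, had 3 of 12 lower and 1 higher, and the factors 4 of 16 lower and 2 higher. *Pparg*, which drives *Cidec* in fatty liver, was among the lower ones, chosen here after its values were seen. It was 128, 152 and 174 at the lowest, median and highest Cas-5% liver and 188, 250 and 275 on Soy-10%. The groups did not overlap, as for 4.09% of all genes tested in that direction (log2 fold change -0.65 ± 0.10 SE, adjusted p = 0.00059). Median log2 fold changes were -0.12 for droplet genes, -0.06 for lipolysis, -0.18 for uptake, 0.03 for synthesis and -0.01 for export.

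**Figure D4:**
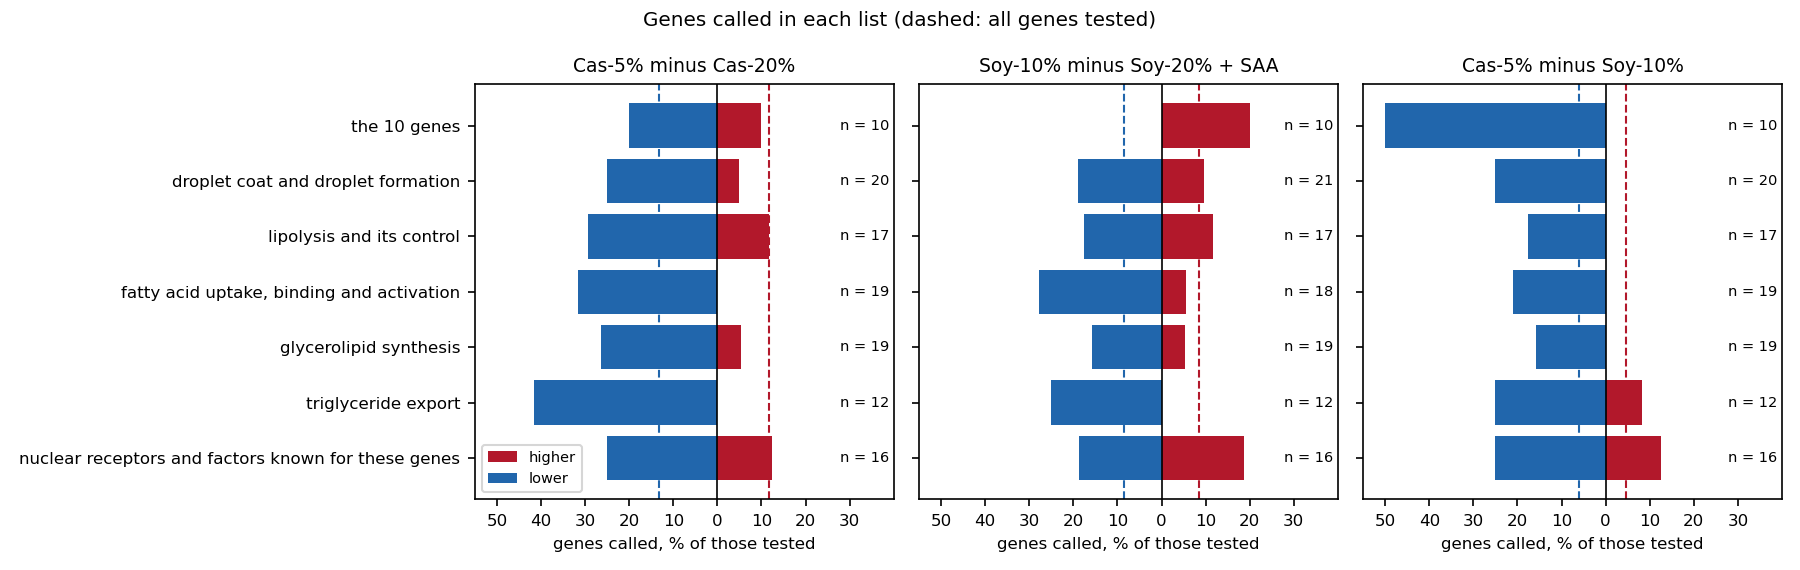
Share of the tested genes of each list (n at the right of each panel) that were higher (red, to the right) or lower (blue, to the left), with dashed lines at the shares of all genes tested. Between the restricted diets 5 of the 10 genes are lower against 6.14% of all genes. On casein restriction 2 of the 10 genes are lower against 13.3%, and each pathway list has a larger share lower than that. All lists but that of the factors include some of the 10 genes.

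Markers of other cells were read beside these results, since in whole liver fewer cells of a type and less RNA per cell cannot be told apart. Between Cas-5% and Soy-10%, 0 of 12 Kupffer cell markers and 0 of 10 sinusoidal endothelial markers differed, and 7 of 10 stellate cell markers were higher on Cas-5%. Of all genes tested 4.59% were higher on Cas-5% and 6.14% lower. The Kupffer cell marker *Clec4f* was 383.6 to 627 on Cas-5% and 451 to 483 on Soy-10%, and the summed stellate markers were 5289 to 6803 on Cas-5% and 4920 to 5433 on Soy-10%. Of 5 adipocyte markers tested 2 were lower on Cas-5%, *Cfd* and *Thrsp*. *Cfd* was 7.76 to 47.5 on Cas-5% and 126.5 to 764 on Soy-10%. *Thrsp*, a lipogenic gene that hepatocytes also express, was the most abundant of the adipocyte markers, whose sum without it was 311 to 413 on Cas-5% and 419 to 1203 on Soy-10%. Of the 11 adipocyte markers listed, 7 were among the genes of the deposited tables. *Plin1*, the perilipin of adipocytes, was not, and the defining markers *Adipoq*, *Lep* and *Retn* were not among those tested. The part of other cells in the lower *Cidec*, *Plin4* and *Cd36* was not tested.

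On casein restriction 0 of 12 Kupffer cell markers changed, and 3 of 10 sinusoidal endothelial and 3 of 10 stellate markers rose. Of the adipocyte markers 3 of 5 fell, *Cfd*, *Thrsp* and *Lipe*. Of all genes tested 11.6% rose and 13.3% fell. The summed adipocyte markers without *Thrsp* were 413.5 to 655 on Cas-20%, only just above the highest Cas-5% liver, at 412.6. That sum includes *Lipe* and *Cidea*, which are also counted in the lipolysis and droplet lists. On soy restriction against Soy-20% + SAA 2 of 12 Kupffer, 2 of 10 endothelial and 0 of 10 stellate markers rose. There 3 of 6 adipocyte markers fell, and of all genes tested 8.51% rose and 8.47% fell. The summed skeletal muscle markers were 4.83 to 13.3 on Cas-20% and 37 to 88.3 on Cas-5%, without overlap, and the 1 muscle marker tested, *Mylpf*, rose on casein restriction (log2 fold change 1.27 ± 0.26 SE, adjusted p = 0.0016). In the soy diets that sum was 15.2 to 73.1, and its part in the results on casein was not tested. The pancreatic sum outside Soy-10% liver 4, nearly all of it *Cela1*, was at or under 629.

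Across livers, 6 pairs of genes were compared after the diet means had been subtracted from log2 CPM (counts scaled to library size), with permutations within diets and adjustment over the 6 pairs. *Cidec* and *Plin4* had a Pearson r of 0.83 over the 30 livers (adjusted p = 6e-05 by permutation test, the smallest that 100000 permutations can give after adjustment; Spearman rho 0.871), and r was above 0 in 5 of 5 diets, from 0.652 to 0.948. *Plin2* and *Cidec* had r of 0.72 (permutation test, adjusted p = 0.0012, rho 0.721), above 0 in 4 of 5 diets. *Plin2* and *Cd36* had r of 0.636 (permutation test, adjusted p = 0.0013, rho 0.66), above 0 in 5 of 5 diets. Leaving out the 2 livers farthest from the median of the first gene gave 0.779, 0.78 and 0.698 for these pairs.

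*Pnpla2* with its inhibitor *G0s2* gave r of 0.204 (permutation test, adjusted p = 0.32, rho 0.181), and *Dgat1* with *Dgat2* 0.293 (0.15, rho 0.263). *Pparg* with *Cidec* gave 0.373 over 30 livers (permutation test, adjusted p = 0.13), with a rho of 0.503 that passed (0.035 by the same test), and 0.897 over the 24 livers outside Soy-20% + SAA (9e-05, rho 0.868). In Soy-20% + SAA livers 3, 4, 5 and 6 *Pparg* was 77.5, 16.3, 42.0 and 37.8, against 199 and 207 in livers 1 and 2, and the last 200 bases of its transcripts were 34.8% GC. Without the 2 livers farthest from the median these 3 pairs gave 0.118, 0.283 and 0.556. Both genes of a pair were read from the same libraries, so that depth and composition of a library may enter both.

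**Figure D5:**
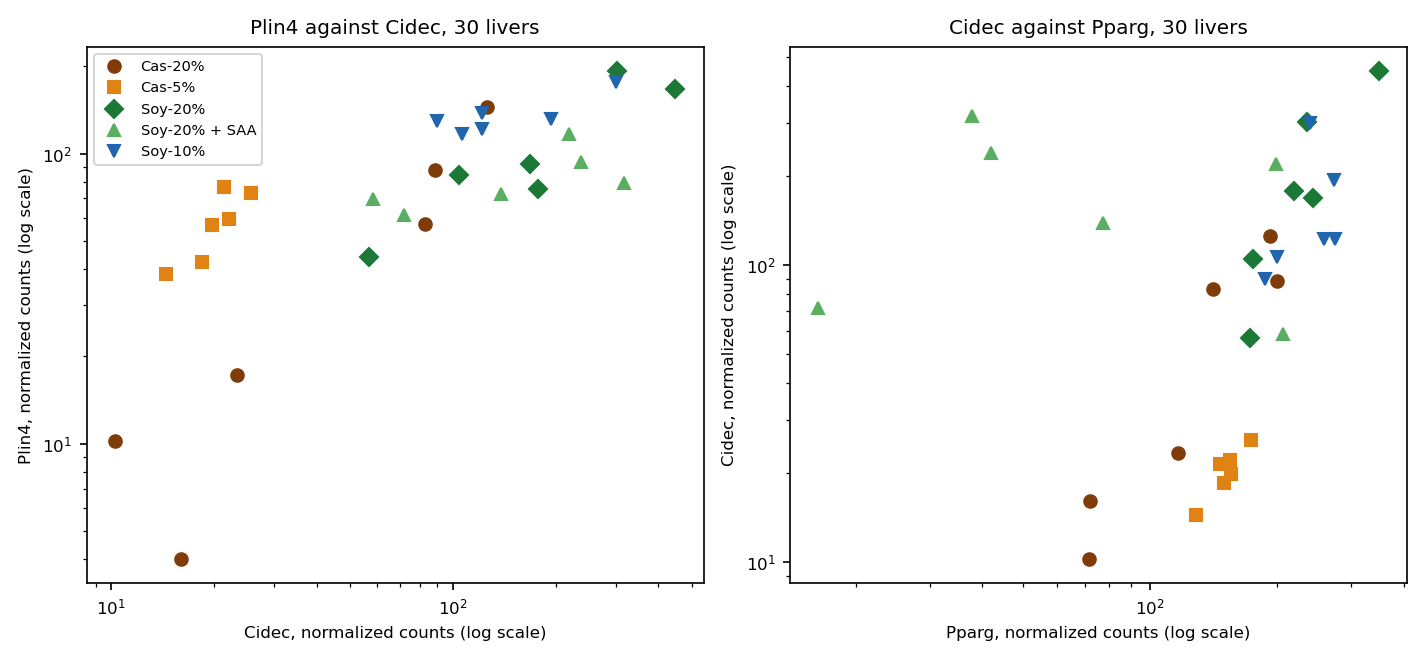
*Plin4* against *Cidec* (left) and *Cidec* against *Pparg* (right) in 30 livers, as normalized counts on log scales, with a marker for each diet. Cas-20% livers 1, 2 and 3 lie at 10.2 to 23.3 *Cidec* and livers 4, 5 and 6 at 83.0 to 125.5, and 4 Soy-20% + SAA livers lie apart at 16.3 to 77.5 *Pparg*.

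For each of the 10 genes, the 2 genes most like it were sought among 11992 genes with a mean of at least 10 normalized counts, by Pearson r of log2 CPM over the 30 livers, as a description. *Cidec* was most like *Lgals1* (r = 0.921, and 0.913 over the 24 livers outside Soy-20% + SAA) and *Clstn3* (0.886 and 0.889). *Plin4* was most like *Fitm2* (0.868 and 0.896), which like *Fitm1* acts in droplet budding, and *Abcc3* (0.863 and 0.88). *Cd36* was most like *Bche* (0.834 and 0.855) and *Lgals1* (0.817 and 0.902). *Plin5* was most like *Creg1* (0.91 and 0.915) and *Pcsk6* (0.907 and 0.922), and *Plin2* most like *Pctp* (0.89 and 0.879) and *Paqr7* (0.881 and 0.866).

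*Cideb* followed *Hibadh* (0.96) and *Aco1* (0.95), but over the 24 livers outside Soy-20% + SAA these fell to 0.755 and 0.599. *G0s2* was most like *Cox7c* (0.827 and 0.798) and *Eci1* (0.817 and 0.742), both of mitochondria, and *Pnpla2* most like *Sun2* (0.793 and 0.804) and *Sh3d21* (0.774 and 0.824). *Dgat1* was nearest to *Rab13* (0.72 and 0.686) and *Gramd1b* (0.685 and 0.721), and *Dgat2* to *1810058I24Rik* (0.768 and 0.681) and *Serpina6* (0.715 and 0.586). Among the 45 pairs of the 10 genes, after subtraction of the diet means, *Cidec* and *Cd36* had the highest r, at 0.893, and *Cideb* and *Dgat2* the lowest, at -0.495.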

How the data were processed

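RNA of 30 livers, 6 per diet, was sequenced from the 3′ end (QuantSeq), and the authors counted reads per gene with the Bluebee QuantSeq pipeline on GRCm38 with GENCODE M21. Aligner and strand setting are not given in the sources used here, and the stated read length differs between sources. The deposited values were raw counts per gene and a normalized signal, counts divided by size factors, which the submitters' processing notes tie to DESeq2 1.30 in R 4.0.3. The tables held 14173 genes, each with at least 90 counts in all. Of 1718 genes without a symbol in the tables, 1684 were given one from the reference by identifier.

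Counts were tested with edgeR 4.0.16 in R 4.3.3 (filterByExpr, TMM, quasi-likelihood F test, Benjamini-Hochberg threshold 0.05 over all genes), with only the livers compared in each fit. The livers came from separate mice. CPM values for correlations used a prior count of 2. Values per liver are the authors' normalized counts. The genes and lists were chosen with earlier results of these data known. Named list genes were up to 3 per list with the smallest p among those called, for casein and for soy restriction, and some of them are not reported here. The 2 genes most like each gene were those of highest Pearson r. Scripts were tested on simulated data. The alternatives were DESeq2 1.42.0, a fit over 30 livers, a filter of 10 counts, the GC slope as covariate, livers left out, the replicate number as block and Soy-20% as control. Depth was 7694015 to 14565542 counts, and intervals are 95%.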

Additional observations from a re-analysis of the deposited data

Results flagged for a closer look

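In 3 of 50 groups of a gene and a diet, each of 6 livers, the highest liver lay farther from the others than Dixon's 95% critical value allows, and chance alone flags about 1 in 20 groups. They were *Plin4* in Soy-10% liver 6, at 175.7 normalized counts against 117 to 138 in the other livers, *Cideb* in Cas-5% liver 5, at 4538 against 3886 to 4119, and *G0s2* in Cas-5% liver 5, at 2697 against 1561 to 1864. The effects of casein and soy restriction differed for *Cideb* by a log2 value of -0.86 and for *G0s2* by -1.57 (adjusted p by edgeR 0.0099 and 0.039), with Soy-20% + SAA as the soy control.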

How the results depend on the processing

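Depth limits *Plin4* and *Cidec* most, and the number of livers limits all values. Among the 10 genes, the casein calls of *Plin5* and *Cideb*, the calls of *Cidec* and *G0s2* between the restricted diets and the difference call of *Cideb* were kept under every alternative run at the 0.05 threshold. Median-of-ratios size factors and the absence of a count filter moved no count of called genes by more than 1.5 times. The cause of the changes below was not tested.

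With a log2 fold change of at least 1 asked as well, 1 of the 10 genes was called for casein restriction (3.48% of all genes), 1 for Soy-10% against Soy-20% + SAA (2.57%), 3 between the restricted diets (0.872%) and 1 for the difference of the effects (2.27%). One fit over 30 livers gave 4 for Soy-10% against Soy-20% + SAA (24.5%), without *Plin4*, 1 for supplementation (14.3%), 4 between the control diets (18.6%) and 2 between the restricted diets (7.17%). DESeq2 gave 2 between the control diets (9.43%).

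With the GC slope as covariate 0 were called for Soy-10% against Soy-20% + SAA (2.79% of all genes) and 1 for the difference (4.3%). Log2 values changed sign for *Plin4* (-0.0846) and *Pnpla2* (0.0311) on casein, *Plin2* (0.0327), *Cidec* (0.224) and *Dgat2* (0.021) on Soy-10% against Soy-20% + SAA, *G0s2* (-0.085) against Soy-20%, *Plin2* (-0.0194) and *Dgat2* (-0.121) for supplementation, and *Dgat2* between the control diets (0.119) and for the difference (-0.0677). Without Soy-20% + SAA livers 3 to 6, 0 were called for Soy-10% against Soy-20% + SAA and 1 for the difference. The shares of all genes called in those fits are not reported here. The sign changed for *Cidec* (0.143), *Cideb* (-0.041) and *Dgat2* (0.00824) on soy, *Dgat2* (-0.133) for supplementation, *G0s2* (-0.0405) and *Dgat2* (0.169) between the control diets, and *Plin2* (-0.0269) and *Dgat2* (-0.127) for the difference.

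With Soy-20% as the soy control, chosen after seeing the data, 1 was called between the control diets (2.69% of all genes) and 1 for the difference (5.99%). The sign changed for *G0s2* (-0.355), *Cd36* (-0.266) and *Dgat2* (0.0391) in the former and *Plin2* (-0.0761) in the latter. *Pparg* with *Cidec* rose to r = 0.897 without the 6 Soy-20% + SAA livers, past the threshold.

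With 1 liver left out, counts ran from 1 to 4 for Soy-10% against Soy-20% + SAA, 0 to 2 for supplementation, 0 to 3 between the control diets and 1 to 3 for the difference. The shares of all genes called with 1 liver left out are not reported here. Log2 values that crossed 0 were *Plin4* (-0.13 to 0.731), *Plin2* (-0.134 to 0.0482) and *Pnpla2* (-0.123 to 0.046) on casein, *Pnpla2* (-0.0243 to 0.0654) and *Cidec* (-0.467 to 0.0969) on soy against Soy-20% + SAA, *Cd36* (-0.236 to 0.153) and *Plin2* (-0.0299 to 0.0789) against Soy-20%, *Dgat1* (-0.0608 to 0.0293) and *Cidec* (-0.523 to 0.103) for supplementation, *Cd36* (-0.0492 to 0.358) and *Dgat1* (-0.0295 to 0.0588) between the control diets, and *Plin4* (-0.847 to 0.0208) and *Pnpla2* (-0.142 to 0.0212) for the difference.

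Livers of different diets share only replicate numbers: the correlations of same-numbered livers ran from -0.19 to 0.239, and at most 3 of 6 livers correlated best with their own number. The replicate block gave 2 of the 10 genes for casein (22% of all genes), without *Cidec* (adjusted p = 0.076), 2 for soy against Soy-20% + SAA (16.8%), 6 between the restricted diets (11.4%), 1 for the difference (10.2%), without *G0s2* (0.051), and 6 among the 5 diets (42.6%).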
